A study of Homo sapiens with 6 samples.

Results

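A set of 9 genes of the apical sodium-proton exchange apparatus were followed in Ishikawa cells, an established line from an endometrial adenocarcinoma that responds to estrogen. The 9 genes were read by symbol from a table of 26364 genes and all 9 were present. They comprised 2 exchangers (SLC9A3 and SLC9A2), 3 scaffold proteins with PDZ domains (SLC9A3R1, SLC9A3R2 and PDZK1), the actin linker EZR and 3 surface peptidases (ANPEP, DPP4 and MME). SLC9A3 had been picked because it was higher in ETV4 knockout clones than in the parental line, and ANPEP because estradiol raised it, so those contrasts are described for these genes without a test. The other 7 were picked by function.

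The study set the parental line against 2 clones in which ETV4, an ETS family transcription factor, had been knocked out. Each of the 3 lines gave 1 library after 0.1% DMSO, the vehicle, and 1 library after 10 nM 17β-estradiol (E2), which makes 6 poly(A)-selected libraries. All lines had spent 5 days in hormone-depleted medium before treatment, and the labels give the exposure as 8 h in the protocol and as 1 h in the sample characteristics. Each clone is a single clone and the parental line gave 1 library per treatment, so genotype and line cannot be told apart. Nothing in the labels names separate cultures within a line, and p-values measure the spread between these libraries.

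A sodium-proton exchanger carries a sodium ion into the cell and a proton out. SLC9A3 (NHE3) does this at the brush border of intestine and kidney tubule, where SLC9A3R1 (NHERF1), SLC9A3R2 (NHERF2) and PDZK1 (NHERF3) tie it and other transporters to each other. Ezrin, the product of EZR, joins SLC9A3R1 and SLC9A3R2 to actin in the microvillus. In the endometrium, exchangers and bicarbonate transporters of the luminal epithelium set the sodium content and acidity of uterine fluid. ANPEP (aminopeptidase N, CD13), DPP4 (CD26) and MME (neprilysin, CD10) are peptidases whose active site faces outward from the same kind of membrane.

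The libraries held between 28037392 and 36829479 counts, and 15611 genes passed the filter on low counts. Levels below are CPM, counts scaled to a common library size after TMM normalization. The targeted gene ETV4 measured 19.7 CPM under DMSO and 28.4 CPM under E2 for the parental line, and between 2.43 and 3.41 CPM in the 4 clone libraries. All 7 epithelial markers and all 7 endometrial markers on the lists were tested, and their summed levels ran from 2140 to 3093 CPM and from 709.9 to 973.2 CPM. Markers of leukocytes summed to at most 5.69 CPM and those of endothelium to at most 4.58 CPM, with CD3E at 0 counts throughout. Fibroblast markers summed to between 46.6 and 85.8 CPM, most of it COL1A1, while PDGFRB, DCN and LUM did not exceed 0.0837 CPM. In that list COL3A1 had 7.93 and 9.73 CPM in the parental line and between 1.34 and 3.35 CPM in the clones (log2 difference -2.09, adjusted p 0.117). Of 7 intestinal markers 3 had no count in any library (CDX1, FABP1 and FABP2), and the list summed to between 2.60 and 5.43 CPM. CDX2 had 3.43 and 3.47 CPM in the parental line and between 1.10 and 1.61 CPM in the clones. Its log2 difference was -1.27 (adjusted p 0.144 by edgeR's quasi-likelihood test). MUC2 went the other way, with 0 and 0.615 CPM in the parental line and between 0.3415 and 2.78 CPM in the clones. Its log2 difference was 2.63 (adjusted p 0.312 by the same test). Of 7 kidney tubule markers 3 had no count (CUBN, SLC34A1 and SLC22A6). That kidney list summed to between 0.807 and 1.50 CPM in the parental line and between 2.49 and 3.01 CPM in the clones, and most of the sum was LRP2. The part of these markers in the results below was not tested.

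SLC9A3R1, SLC9A3R2 and EZR were far more abundant than PDZK1, the exchangers and the peptidases. On a scale of CPM per kilobase of annotated exon, which allows levels of different genes to be compared, the mean over the 6 libraries was 108 for EZR, 87.7 for SLC9A3R1 and 49.4 for SLC9A3R2. On the same scale SLC9A3 averaged 1.95, SLC9A2 1.90, PDZK1 1.78, ANPEP 1.08, MME 0.114 and DPP4 0.0192. The exchangers changed order between lines: in DMSO the level per kilobase was 1.51 for SLC9A2 and 0.113 for SLC9A3 in the parental line, against 1.30 for SLC9A2 and 3.87 for SLC9A3 in clone 2. In clone 1 the levels per kilobase of SLC9A2 and SLC9A3 were 1.48 and 1.73 in DMSO and 2.57 and 2.38 in E2, so neither exchanger led in both treatments. Across the 6 libraries the highest level of SLC9A3R2 was 1.36 times the lowest and that of EZR was 1.49 times the lowest, while for SLC9A3 the ratio was 34.1 and for ANPEP 98.4.

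**Figure D1:**
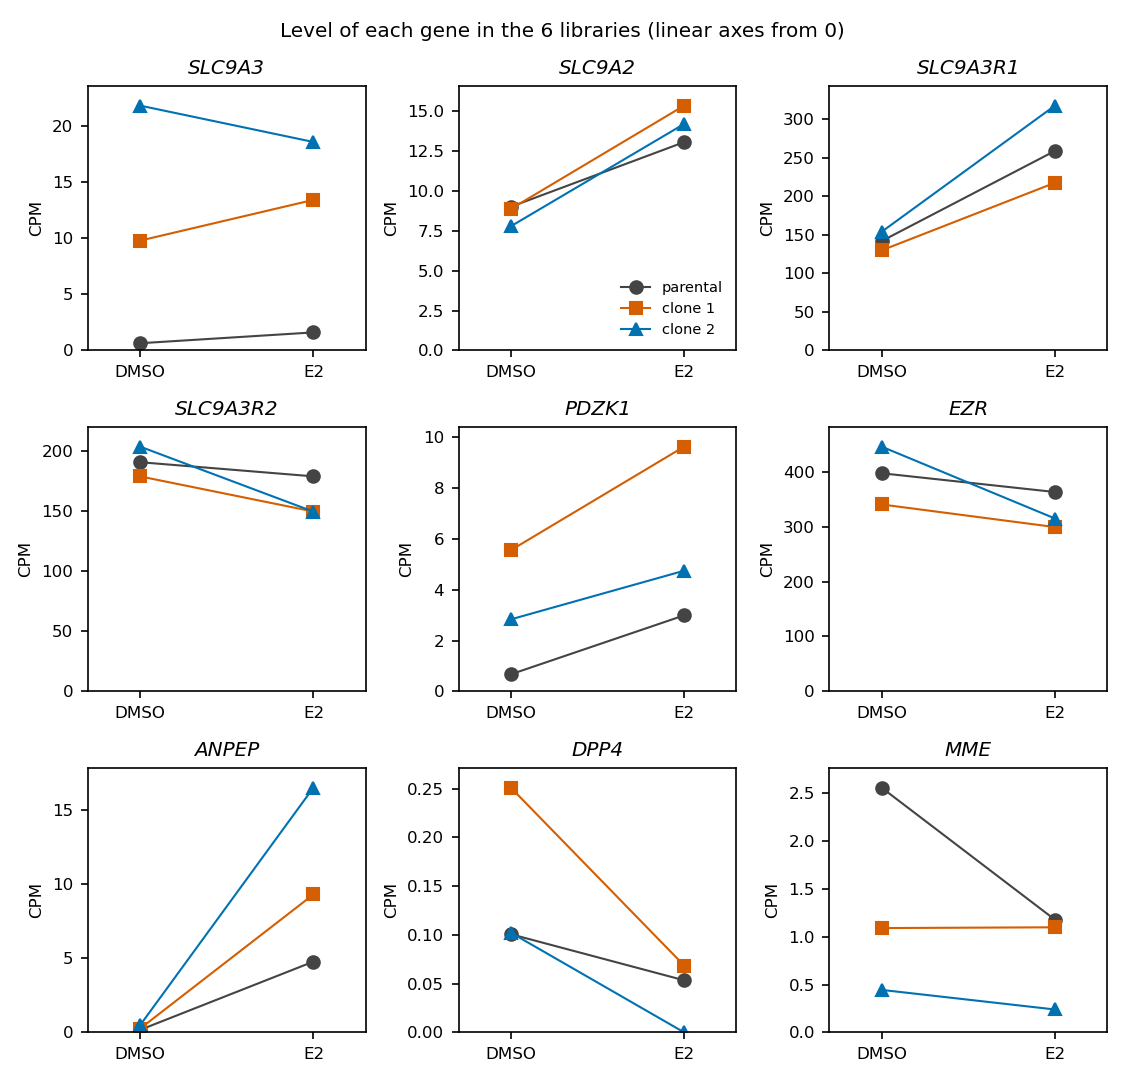
Level of each of the 9 genes in the 6 libraries, in CPM on linear axes that start at 0, with DMSO and E2 joined by a line for the parental line (grey circles), clone 1 (orange squares) and clone 2 (blue triangles). SLC9A3 separates the lines, ANPEP separates the treatments, and PDZK1 differs along both.

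The start regions of 4 genes are shown because these genes carry the main differences between the libraries. They are the 250 bases before the annotated start, read 5′ to 3′ on the gene's own strand, from RefSeq on GRCh38.p14. They lie at chr5:524450-524699 (minus strand) for SLC9A3, chr1:145707401-145707650 (minus strand) for PDZK1, chr15:89806629-89806878 (minus strand) for ANPEP and chr17:74748378-74748627 (plus strand) for SLC9A3R1. Capitals mark AGGTCA or its reverse complement, the half-site that estrogen receptor shares with other nuclear receptors.
SLC9A3: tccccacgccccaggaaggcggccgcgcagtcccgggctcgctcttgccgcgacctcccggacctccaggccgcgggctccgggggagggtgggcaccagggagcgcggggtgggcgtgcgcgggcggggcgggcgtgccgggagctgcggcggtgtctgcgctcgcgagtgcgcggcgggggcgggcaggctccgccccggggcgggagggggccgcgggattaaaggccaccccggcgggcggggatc
PDZK1: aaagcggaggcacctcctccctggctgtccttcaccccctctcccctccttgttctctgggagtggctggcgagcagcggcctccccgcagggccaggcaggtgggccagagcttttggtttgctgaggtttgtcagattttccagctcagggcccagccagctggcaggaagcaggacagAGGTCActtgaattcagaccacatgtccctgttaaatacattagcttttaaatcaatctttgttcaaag
ANPEP: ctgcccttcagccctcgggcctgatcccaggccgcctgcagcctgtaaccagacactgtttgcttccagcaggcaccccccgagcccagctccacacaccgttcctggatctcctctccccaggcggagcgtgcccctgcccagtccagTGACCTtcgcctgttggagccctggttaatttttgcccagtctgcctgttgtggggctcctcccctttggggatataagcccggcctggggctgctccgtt
SLC9A3R1: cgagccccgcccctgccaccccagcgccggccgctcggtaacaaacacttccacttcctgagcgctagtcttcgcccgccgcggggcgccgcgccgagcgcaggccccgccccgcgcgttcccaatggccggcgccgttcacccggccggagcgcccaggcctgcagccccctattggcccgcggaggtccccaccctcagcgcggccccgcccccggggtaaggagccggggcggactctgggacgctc

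All 9 genes had an entry in RefSeq's promoter table, with 14 windows between them, since some genes have several starts. AGGTCA was found on either strand in 3 of the 9 genes (PDZK1, ANPEP and MME) and in 5 of the 14 windows, against 12.1% of all 35116 windows of this length. That share is of single windows, so it cannot be set against the count of genes, and overlapping windows can hold the same copy. Both PDZK1 windows hold the same copy, which lies 69 to 64 bases before the first start listed. In ANPEP the match lies 101 to 96 bases before the downstream of 2 annotated starts, on the strand opposite to the gene. That window is the one shown because it holds the match, and the window of the upstream start, chr15:89814853-89815102, holds none. No member window held the full palindrome of the estrogen response element, which is AGGTCA followed by 3 free bases and its reverse complement, or the core of that palindrome without its outermost bases. Of all windows 0.00285% and 0.0399% held these motifs. None held CCGGAAGT or ACCGGAA, which contain the core recognised by ETS factors and overlap each other, and which 3.42% and 3.04% of all windows held. Other ETS sequences were not searched, so these windows may hold them. The core itself, GGAA, occurs in the windows shown for SLC9A3 and PDZK1. The windows also differed in base composition: the one of SLC9A3 was 82.0% G and C with 38 CpG dinucleotides, and the one shown for PDZK1 was 55.6% with 4.

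SLC9A3 was the exchanger that set the clones apart. It measured 0.639 CPM under DMSO and 1.60 CPM under E2 for the parental line (19 and 60 counts). Clone 1 had 9.77 CPM in DMSO and 13.4 CPM in E2 (350 and 391 counts). Clone 2 had 21.8 CPM in DMSO and 18.6 CPM in E2 (638 and 543 counts). All 4 clone libraries lay above both parental libraries, as did those of 8.53% of all tested genes, and each clone exceeded the parental library of its treatment by at least 2 times, as for 0.564% of genes. The clones also differed from each other. In bulk RNA more cells with the transcript and more transcript per cell cannot be told apart. In DMSO clone 1 had 15.3 times the parental level (95% interval 9.65 to 25.7) and clone 2 had 34.1 times (21.7 to 57.0), where the intervals are exact binomial ones that cover counting error only. In E2 the ratios were 8.36 (6.36 to 11.2) and 11.6 (8.85 to 15.4). The fitted log2 difference between clones and parental line was 3.85 (SE 0.50), which is the value that chose the gene. By edgeR's quasi-likelihood test 51 of 15611 genes (0.327%) differed between clones and parental line, 23 of them (0.147%) higher and 28 (0.179%) lower in the clones.

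**Figure D2:**
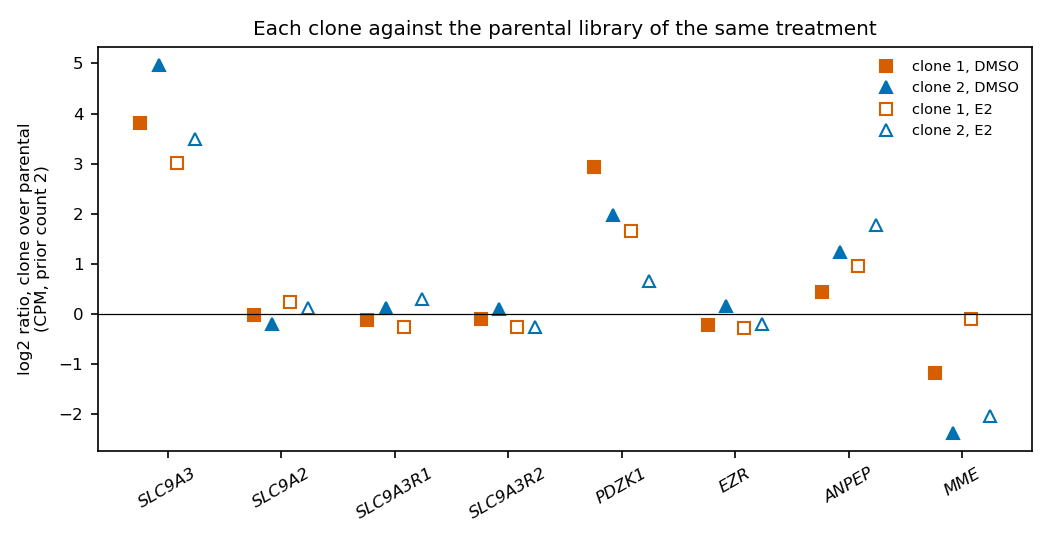
Log2 ratio of each clone to the parental library given the same treatment, from CPM with a prior count of 2, for the 8 genes that passed the filter (filled symbols DMSO, open symbols E2). SLC9A3 lies at 3.01 or more in all 4 comparisons and PDZK1 between 0.66 and 2.93, while SLC9A2, SLC9A3R1, SLC9A3R2 and EZR stay within 0.30 of 0.

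In E2 SLC9A3 was above its DMSO level in the parental line and clone 1 and below it in clone 2. The level in E2 was 2.51 times that in DMSO in the parental line (95% counting interval 1.48 to 4.45), 1.37 times in clone 1 (1.19 to 1.59) and 0.852 times in clone 2 (0.758 to 0.956). The fitted E2 effect on the log2 scale was 0.33 (SE 0.39; adjusted p 0.636 by edgeR's quasi-likelihood test). Without the libraries of clone 2 it was 0.75 with an adjusted p of 0.0320, in a fit that called 12.7% of genes higher, and without those of the parental line it was 0.01.

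SLC9A2 (NHE2), the other apical exchanger, was at similar levels in clones and parental line, and its difference did not pass the test. Under DMSO the parental line had 9.01 CPM and the clones averaged 8.33 ± 0.771 CPM (SD, n = 2). Under E2 these values were 13.1 CPM and 14.8 ± 0.809 CPM (SD, n = 2). The log2 difference between clones and parental line was 0.03 (SE 0.16; adjusted p 0.937 by edgeR's quasi-likelihood test). Every E2 library lay above every DMSO library for this gene, as for 13.5% of all tested genes. The E2 effect was 0.73 (SE 0.15) on the log2 scale, at ratios of 1.45 (parental), 1.73 (clone 1) and 1.83 (clone 2), and it did not pass the threshold (adjusted p 0.0927). It passed in DESeq2 (0.73, adjusted p 0.00456), which called 4.86% of genes higher. Without clone 1 the effect was 0.68, and without clone 2 it was 0.66.

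The genes that lie beside SLC9A3 were then read, in the order of RefSeq's GRCh38.p14 annotation. The row LOC100288152 is the gene now named SLC9A3-AS1, an antisense RNA that overlaps SLC9A3, and PP7080 is now SLC9A3-OT1, an RNA on the same strand as SLC9A3 that overlaps its exons. SLC9A3-AS1 measured 0.538 CPM under DMSO and 2.08 CPM under E2 for the parental line, 4.08 and 7.51 CPM for clone 1, and 10.0 and 13.0 CPM for clone 2. SLC9A3-OT1 stood at 15.1 and 20.5 CPM in the parental line, at 26.1 and 31.6 CPM in clone 1, and at 38.4 and 37.5 CPM in clone 2. For both RNAs, as for SLC9A3, the lines came in the order parental, clone 1, clone 2 within each treatment. That order also held for ANPEP and for AHRR, CEP72 and TPPP, neighbours described below. The share of all genes with this order was not counted. The log2 difference between clones and parental line was 2.86 (SE 0.55) for SLC9A3-AS1 and 0.92 (SE 0.20) for SLC9A3-OT1 (edgeR's quasi-likelihood test, adjusted p 0.131 and 0.182). The use of strand in counting is not given in the sources used here, so reads of SLC9A3, its antisense RNA and its overlapping RNA cannot be told apart with certainty.

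On the other side, EXOC3, a subunit of the exocyst whose exons also overlap those of SLC9A3 on the opposite strand, was level across the libraries. It ran from 45.7 to 53.9 CPM, with a log2 difference between clones and parental line of -0.02 (SE 0.11; adjusted p 0.938, edgeR's quasi-likelihood test). Further out on that side, AHRR had 1.21 and 1.50 CPM in the parental line and between 1.54 and 2.90 CPM in the clones. By the same test AHRR differed by 0.66 (SE 0.27; adjusted p 0.427), EXOC3-AS1 by -0.26 (adjusted p 0.662) and PDCD6 by -0.23 (adjusted p 0.588). Beyond SLC9A3-AS1, CEP72 differed by 0.28 (SE 0.17; adjusted p 0.518), and TPPP, which encodes a tubulin polymerization protein, by 1.50 (SE 0.35; adjusted p 0.206). Under DMSO TPPP had 1.18 CPM for the parental line, 3.35 for clone 1 and 6.15 for clone 2, and under E2 it had 3.18, 6.48 and 7.11 CPM. For TPPP the 4 clone libraries lay above both parental libraries, as for 8.53% of all tested genes. The gap between clone 1 in DMSO and the parental line in E2 was small.

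**Figure D3:**
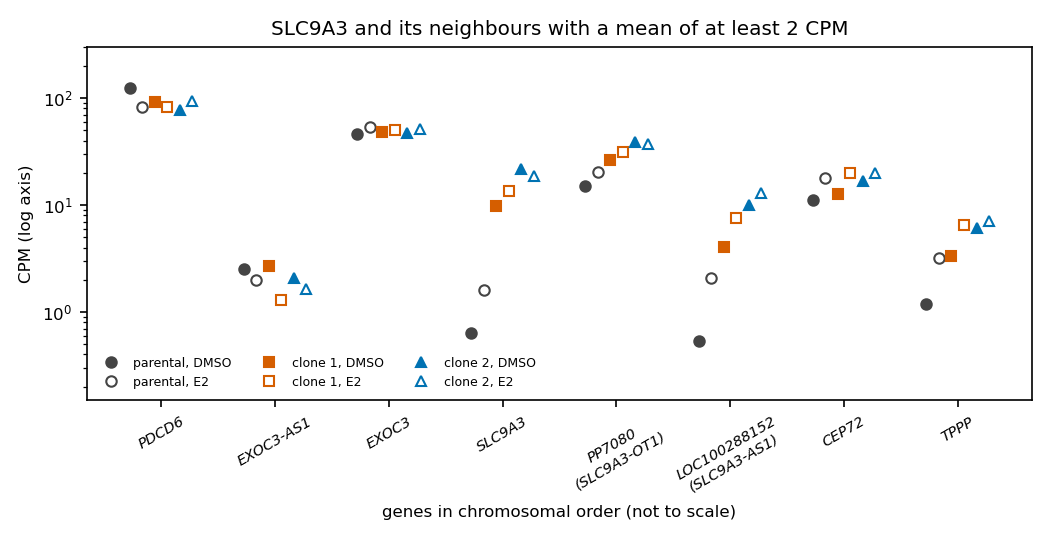
CPM on a log axis in each of the 6 libraries for SLC9A3 and those neighbours that average at least 2 CPM, in chromosomal order with no scale of distance. EXOC3, SLC9A3, SLC9A3-OT1, SLC9A3-AS1, CEP72 and TPPP are lowest in the parental line in DMSO, with EXOC3 in a narrow range of 45.7 to 53.9 CPM.

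PDZK1, which holds together exchangers, the carnitine transporter and other apical carriers, was the scaffold that varied. Parental cells had 0.672 CPM under DMSO and 2.99 CPM under E2 (20 and 112 counts). Clone 1 had 5.55 and 9.63 CPM, and clone 2 had 2.83 and 4.75 CPM. E2 was above DMSO in each line, as for 27.8% of all tested genes, and each clone was above the parental library of the same treatment. The groups overlapped, since clone 2 in DMSO lay just below the parental line in E2. In DMSO clone 1 had 8.26 times the parental level (95% counting interval 5.21 to 13.8) and clone 2 had 4.22 times (2.56 to 7.26). In E2 the ratios were 3.22 (2.58 to 4.04) and 1.59 (1.23 to 2.05). Clone 1 exceeded clone 2 by 1.96 times in DMSO and 2.03 times in E2, the opposite of their order for SLC9A3.

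The log2 difference of PDZK1 between clones and parental line was 1.83 (SE 0.51; adjusted p 0.275 by edgeR's quasi-likelihood test). It passed in DESeq2 (1.85, adjusted p 0.00590), where 1.90% of genes were called higher. It also passed when 1 clone alone was set against the parental line: 1.25 without clone 1 (adjusted p 0.0308; 2.44% of genes called higher) and 2.23 without clone 2 (adjusted p 1.90e-12; 4.12%). In each of these fits the DMSO and E2 libraries of a line are its only replicates. Their p-values hold no spread between clones, so they did not test a difference shared by knockout clones. The E2 effect was 1.16 (SE 0.44), with an adjusted p of 0.218. It was 1.33 without clone 1 (adjusted p 0.0156; 3.68% of genes called higher) and 1.31 without clone 2 (adjusted p 9.94e-05; 12.7%), against 0.77 without the parental line. PDZK1P1, a pseudogene copy of PDZK1, had no count in any library, and whether reads shared by both were dropped is not given in the sources used here.

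SLC9A3R1 and SLC9A3R2, which each carry a pair of PDZ domains and an ezrin-binding tail, lay on opposite sides of 0 in the E2 effect. SLC9A3R1 measured 142 CPM under DMSO and 259 CPM under E2 for the parental line, 130 and 217 CPM for clone 1, and 154 and 317 CPM for clone 2. Every E2 library lay above every DMSO library, which holds for 13.5% of all tested genes. The ratios of E2 to DMSO were 1.83 for the parental line (95% counting interval 1.76 to 1.89), 1.68 for clone 1 (1.61 to 1.74) and 2.07 for clone 2 (1.99 to 2.14). The E2 effect was 0.90 (SE 0.18) on the log2 scale, and its adjusted p was 0.0772 by edgeR's quasi-likelihood test, which called 1.13% of genes, 0.903% higher and 0.224% lower. With line as a replicate block the effect was 0.89 (SE 0.13; adjusted p 0.0280), in a fit that called 2.46% of genes, 1.72% as higher. It passed in DESeq2 as well (adjusted p 2.05e-04), which called 4.86% of genes higher. The effect was 0.93 without clone 1 and 0.81 without clone 2. Between clones and parental line SLC9A3R1 differed by 0.02 (SE 0.18; adjusted p 0.964).

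SLC9A3R2 was lower in E2 than in DMSO in each line, as 25.2% of all tested genes were. It measured 191 CPM under DMSO and 179 CPM under E2 for the parental line, 179.1 and 149.8 CPM for clone 1, and 204 and 149.7 CPM for clone 2. Its E2 libraries lay below its DMSO libraries, as for 10.7% of genes, by a margin too small to show at this precision between the parental line in E2 and clone 1 in DMSO. The E2 effect was -0.27 (SE 0.13; adjusted p 0.286, edgeR's quasi-likelihood test) and the difference between clones and parental line was -0.13 (SE 0.14; adjusted p 0.671).

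EZR, the most abundant of the genes per kilobase, had a lower E2 than DMSO level in each line, as SLC9A3R2 did. It measured 397 CPM under DMSO and 363 CPM under E2 for the parental line, 340 and 299 CPM for clone 1, and 446 and 315 CPM for clone 2. The groups overlapped, and the E2 effect of -0.28 (SE 0.15) did not pass edgeR's quasi-likelihood test (adjusted p 0.329). The difference between clones and parental line was -0.13 (SE 0.16; adjusted p 0.717). The antisense gene EZR-AS1 had at most 4 counts in a library.

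ANPEP, which trims single residues from the amino end of peptides, was almost silent in DMSO. The DMSO libraries held 5 counts (parental), 9 (clone 1) and 14 (clone 2), which is 0.168, 0.251 and 0.478 CPM. In E2 it had 179, 272 and 484 counts, or 4.78, 9.32 and 16.5 CPM. The E2 level was 28.5 times that in DMSO in the parental line (95% counting interval 12.0 to 88.7), 37.1 times in clone 1 (19.3 to 82.0) and 34.6 times in clone 2 (20.4 to 63.7). The 3 intervals overlap, and the lines keep the same order in both treatments. The fitted E2 effect was 5.07 (SE 0.38) on the log2 scale, which is the value that chose the gene.

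Between clones and parental line ANPEP differed by 1.35 (SE 0.39; adjusted p 0.298 by edgeR's quasi-likelihood test), and each clone was higher in each treatment. In E2, where the counts are larger, clone 1 had 1.95 times the parental level (95% counting interval 1.61 to 2.37) and clone 2 had 3.46 times (2.91 to 4.13). Without clone 1 the difference was 1.71, and without clone 2 it was 0.90. The interaction, which is the E2 effect in the clones minus that in the parental line, was 0.36 (SE 0.95; adjusted p 0.919).

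MME, which cleaves small peptides, had 76 counts under DMSO and 44 under E2 for the parental line, 39 and 32 for clone 1, and 13 and 7 for clone 2. The levels were 2.56 and 1.18 CPM, 1.09 and 1.10 CPM, and 0.444 and 0.239 CPM. All 4 clone libraries lay below both parental libraries, as did those of 7.82% of all tested genes, but clone 1 in E2 was 0.933 times the parental level (95% counting interval 0.573 to 1.50). The log2 difference between clones and parental line was -1.30 (SE 0.60; adjusted p 0.464, edgeR's quasi-likelihood test). It was -2.43 without clone 1 (adjusted p 2.73e-04; 1.65% of genes called lower) and -0.70 without clone 2 (adjusted p 0.398). These fits with a clone left out take the DMSO and E2 libraries of a line as its only replicates. Their p-values hold no spread between clones, so they did not test a difference shared by knockout clones. The E2 effect was -0.55 (SE 0.60; adjusted p 0.606).

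DPP4, which removes dipeptides from the amino end, was close to the limit of detection and did not pass the filter, so it was not tested. It had 3 counts under DMSO and 2 under E2 for the parental line, 9 and 2 for clone 1, and 3 and 0 for clone 2. The count of 0 allows a level of up to 0.1025 CPM, taken as 3 counts. In clone 1 the ratio of E2 to DMSO was 0.273 with a 95% counting interval of 0.0287 to 1.32, so a change was not detectable at this depth. Of the 8 genes that passed, ANPEP was low in all 3 DMSO libraries and passed through its E2 libraries.

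**Figure D4:**
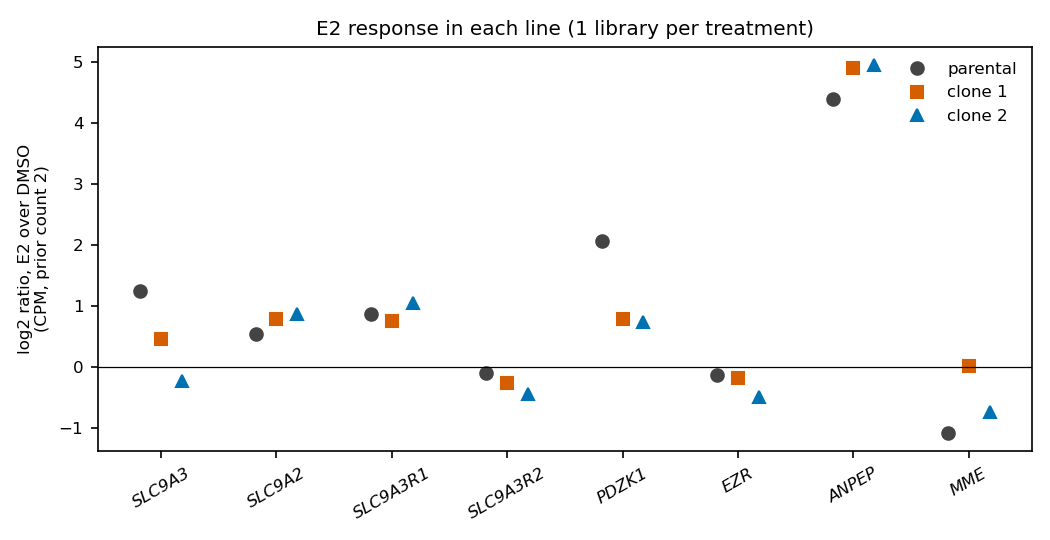
Log2 ratio of the E2 library to the DMSO library in each line, from CPM with a prior count of 2, for the 8 genes that passed the filter, with 1 library per point on either side of the ratio. ANPEP lies between 4.39 and 4.94 in all lines, SLC9A2 and SLC9A3R1 between 0.53 and 1.05, and SLC9A3 on both sides of 0.

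Whether the E2 effect differed between clones and parental line was tested by the interaction. In edgeR's quasi-likelihood test 0 of 15611 genes passed, which is 0% called, although 1190 had an unadjusted p under 0.05, DESeq2 called 29 and limma-voom called 0. The interaction was -1.30 (SE 0.80; adjusted p 0.632) for SLC9A3 and -1.37 (SE 0.86; adjusted p 0.637) for PDZK1. With line as a replicate block, a fit with 1 residual degree of freedom, PDZK1 had -1.38 (SE 0.43; adjusted p 0.0153) and SLC9A3 had -1.22 (SE 0.41; adjusted p 0.0252). That fit called 15.8% of all genes, and 6.92% as lower. For both genes the parental ratio was the largest of the 3 lines: for PDZK1 it was 4.45 (95% counting interval 2.75 to 7.57), against 1.73 in clone 1 (1.44 to 2.09) and 1.68 in clone 2 (1.27 to 2.23). On the parental side these values rest on 1 library per treatment, with 19 and 60 counts of SLC9A3 and 20 and 112 of PDZK1. The parental DMSO library had the lowest TMM factor (0.8987, against 1.008 to 1.045 in the others). It also had the fewest genes detected (17755, against 18119 to 18658). The part of this library's difference in the interaction was not tested. When each library was also corrected for its trend on GC content and transcript length, PDZK1 had -1.71 (adjusted p 0.00533) and SLC9A3 had -0.78 (adjusted p 0.237). For the other 6 genes tested the interaction did not pass with or without the block, and its adjusted p with the block ran from 0.309 for MME to 0.962 for SLC9A3R1.

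The wider apparatus was read from 7 lists, of which 79 genes in all were tested. SLC9A3 was left out of the knockout counts and ANPEP out of the E2 counts below, since each had been chosen on that contrast, which leaves 78 genes for either. In the knockout comparison edgeR's quasi-likelihood test called 0 of 78, against 0.327% of all genes, and 14 had an unadjusted p under 0.05 (17.9%, against 11.4% of all genes). DESeq2 called 3 (3.85%, against 2.91%), which were PDZK1, COBL and FOLH1, and limma-voom called 0. In the E2 effect edgeR called 3 of 78 (3.85%, against 1.13%), and 18 had an unadjusted p under 0.05 (23.1%, against 20.4%). DESeq2 called 7 (8.97%, against 7.14%) and limma-voom 3. In the interaction edgeR, DESeq2 and limma-voom called 0 of 79, and 2 had an unadjusted p under 0.05 (2.53%, against 7.62%). The median log2 difference over the 79, with SLC9A3 and ANPEP included, was 0.12 for clones against parental line, 0.08 for E2 and -0.20 for the interaction.

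In the SLC9 family 10 of 13 genes were tested. With SLC9A3 left out of the knockout comparison, edgeR's quasi-likelihood test called 0 of them in any of the 3 comparisons, and DESeq2 called SLC9A2 in the E2 effect. The family's median, SLC9A3 included, was 0.10 for the difference between clones and parental line and 0.21 for the E2 effect on the log2 scale, against 0.01 and -0.02 over all genes tested. SLC9A5 passed in the interaction with the replicate block, at -1.49 (adjusted p 0.0110), and not without it. Among 10 tested exchanger regulators, such as the calcineurin-like cofactor CHP1, edgeR and DESeq2 called 0 in any of the 3 comparisons. In edgeR 1 had an unadjusted p under 0.05 for the knockout (10%, against 11.4% of all genes). For E2 and the interaction 0 did (against 20.4% and 7.62% of all genes). Among the 12 tested scaffolds and linkers edgeR called 0 without the block. The scaffolds called by DESeq2 were PDZK1 for the knockout and SLC9A3R1 for E2, and those called with the block were SLC9A3R1 for E2 and PDZK1 for the interaction, with the values given earlier. The median E2 effect was -0.01 over the regulators and 0.16 over the scaffolds and linkers.

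Of 14 tested partners of the scaffolds 1 passed in the E2 effect (7.14%, against 1.13% of all genes) and 0 in the other comparisons by edgeR's quasi-likelihood test. DESeq2 also called SLC22A4, a related organic cation transporter, in the E2 effect (1.67, adjusted p 0.0306). SLC22A5, the sodium-dependent carnitine transporter that binds PDZK1, rose with E2 by 0.87 (SE 0.11; adjusted p 0.0224, edgeR's quasi-likelihood test). It measured 28.7 CPM under DMSO and 53.4 CPM under E2 for the parental line, 31.9 and 52.9 CPM for clone 1, and 28.6 and 57.0 CPM for clone 2. The median E2 effect over the 14 partners was 0.03. CFTR had 2 counts in one library and none in the others, and SLC26A3 and SLC34A1 had none in any, which is at or under the floor of 3 counts.

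In the list of microvillus core and adhesion genes 2 of 15 passed as higher in E2, where 0.903% of all genes did, and 0 as lower, where 0.224% did. ESPN, which bundles actin filaments, measured 278 CPM under DMSO and 1036 CPM under E2 for the parental line, 436 and 979 CPM for clone 1, and 442 and 1125 CPM for clone 2. Its E2 effect was 1.47 (SE 0.18; adjusted p 0.0182, edgeR's quasi-likelihood test). COBL, which nucleates actin filaments, rose by 1.54 (SE 0.12; adjusted p 0.00540), from 17.9 to 53.6 CPM in the parental line, from 28.9 to 95.5 CPM in clone 1 and from 34.5 to 86.1 CPM in clone 2. The villus gene VIL1 stayed between 0.195 and 0.828 CPM and MYO1A did not pass the filter. CDHR5, a cadherin of the tips of microvilli, passed in the interaction with the replicate block and not without it (-2.54, adjusted p 0.0189), and was at 3 counts under DMSO for parental cells.

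Of the 9 tested surface peptidases other than ANPEP, edgeR's quasi-likelihood test called 0 in the E2 effect. By that test 2 of them had an unadjusted p under 0.05 (22.2%, against 20.4% of all genes). The median E2 effect over all 10, ANPEP included, was -0.16. The gene of carboxypeptidase M had an E2 effect of -1.01 (adjusted p 0.0691), which passed with the replicate block (adjusted p 0.0434) and in DESeq2 (adjusted p 2.11e-04). FOLH1, a glutamate carboxypeptidase, was called lower in the clones by DESeq2 (-1.63, adjusted p 0.0234) and not by edgeR. LNPEP passed in the interaction with the block (0.60, adjusted p 0.0430) and not without it. ENPEP, MEP1A and XPNPEP2 had at most 1 count in a library. Among 8 tested genes of basolateral sodium and bicarbonate transport edgeR and DESeq2 called 0 in any comparison. In edgeR 3 had an unadjusted p under 0.05 for the knockout (37.5%, against 11.4% of all genes). For E2 3 did (37.5%, against 20.4%), and for the interaction 0 did (against 7.62%).

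**Figure D5:**
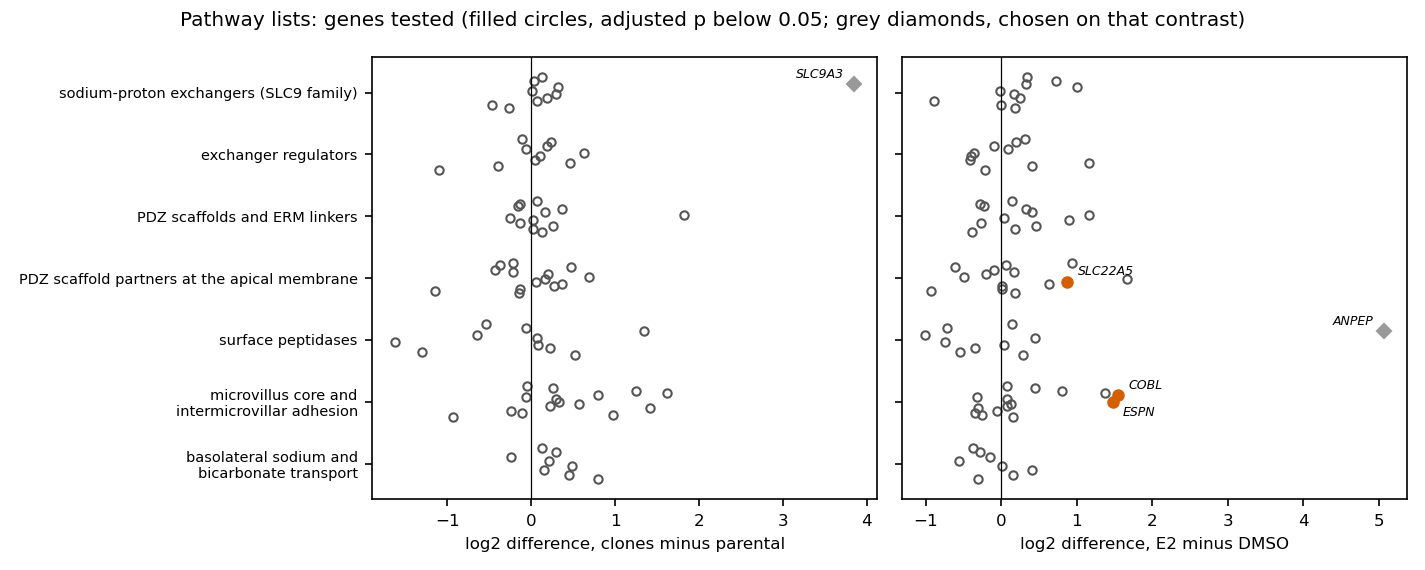
Log2 differences of the tested genes of 7 lists, for clones minus parental line (left) and E2 minus DMSO (right), with filled circles for genes that passed the test and grey diamonds for the gene chosen on that contrast. Only SLC22A5, COBL and ESPN are filled, all in the E2 effect.

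The genes closest in pattern to 3 of the members were found among 12366 genes averaging 2 CPM or more, by the root mean square difference of centred log2 CPM over the 6 libraries. For SLC9A3 the closest was its own antisense RNA SLC9A3-AS1 (LOC100288152), at 0.55, followed by LOC442497 and PCDH19, both at 0.70, MAGEC1 at 0.81 and LBH at 0.87. PCDH19, a protocadherin, stood at 10.8 and 19.2 CPM in the parental line and between 82.4 and 123 CPM in the clones. For ANPEP the closest were IQSEC3 at 0.48, MMP17 at 0.54, NPPC at 0.58, CACNA1I at 0.62 and DHRS3 at 0.67. MMP17, a membrane-anchored metalloproteinase, went from 2.25 to 100.2 CPM with E2 in the parental line, from 5.08 to 79.1 CPM in clone 1 and from 6.35 to 114 CPM in clone 2. For PDZK1 the closest were NCKAP5 at 0.26, GABRE at 0.29, LOXL4 at 0.31, GLIS3 at 0.32 and C15orf52 at 0.34. LOXL4, a lysyl oxidase, stood at 11.2 and 28.6 CPM in the parental line, at 87.1 and 104 CPM in clone 1, and at 49.5 and 70.0 CPM in clone 2, with the same order of lines as PDZK1.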

How the data were processed

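Gene counts were analysed for 6 RNA-seq libraries from 3 lines, 1 per line and treatment. The authors deposited raw counts per gene symbol. The submitters' processing notes name HISAT2, SAMtools, Subread, DESeq2 and the build hg19, and the annotation, the strand setting and the treatment of multi-mapping reads are not given in the sources used here. A deposited table of rescaled counts was not used. Column names that read DMOS and ER were taken as DMSO and E2.

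The software was R 4.3.3 and edgeR 4.0.16. Low genes were removed by filterByExpr, libraries were scaled by TMM, and the quasi-likelihood test was run with Benjamini-Hochberg adjustment over 15611 genes at 0.05. The knockout and E2 effects came from additive models of all 6 libraries and the interaction from the 4 group means. Each SE is the size of the log2 effect divided by root F. The tests were checked on simulated data. Alternatives were median-ratio scaling, no filter, a minimum of 10 counts per library, DESeq2 1.42.0, limma-voom (limma 3.58.1), the replicate block, each line left out, and prior counts of 2 and 0.5 for single ratios. The correction for GC content and transcript length, alone or with the block, was chosen after seeing the data and covered 93.6% of tested genes and all 9 members. The block was line, as a fixed factor, or as a random effect for the knockout effect. Lines pair the DMSO and E2 libraries of the same cells, and the difference between the clones correlated at 0.626 across genes between treatments. Exon lengths came from GENCODE 29 on GRCh38, not the authors' annotation. Genes outside the 9 were named where they passed on a list (up to 3 per list, direction and comparison, with a mean of at least 2 CPM), where they were among the 5 closest patterns, or, chosen after their values were seen, as neighbours or low and block-only examples. The members and lists were chosen with earlier results of these data known. Counting intervals cover counting error only.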

Additional observations from a re-analysis of the deposited data

Results flagged for a closer look

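Of the 79 list genes tested, 5 passed in the interaction when it included line as the replicate block, a fit with 1 residual degree of freedom. The difference in E2 effect, clones minus parental, was -1.38 for PDZK1, -1.22 for SLC9A3, -1.49 for SLC9A5, -2.54 for CDHR5 and 0.60 for LNPEP on the log2 scale. None of these 5 passed without the block, and the blocked fit called 2470 of 15611 genes (15.8%), a larger share than on the lists.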

How the results depend on the processing

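The number of genes called for the knockout effect was 51 and moved to 454 in DESeq2, to 118 with the GC and length correction, and to between 631 and 996 with a clone left out, while the replicate block gave 46. The number for the E2 effect was 176 and moved to 1115 in DESeq2, to 384 with the replicate block, to 382 with the GC and length correction, to 1538 with both, and to between 49 and 3353 with a line left out. The number for the interaction was 0 and moved to 29 in DESeq2, to 2470 with the replicate block and to 1474 with the block and the GC and length correction. Leaving out a clone leaves 0 residual degrees of freedom for the interaction, so it gave a value and no test. Of 416 single values of the members under the alternatives, 385 kept their direction and their side of the threshold or stayed within their error, 20 came to pass the threshold, 5 moved and 6 changed sign. Some of those 20 were knockout or E2 effects with a clone left out, for which only the size is given above. The sign changes were in values near 0: the knockout effect of SLC9A2 was -0.024 with the GC and length correction and ran from -0.056 to 0.11 with a clone left out, that of SLC9A3R1 ran from -0.19 to 0.19, and the interaction of SLC9A3R1 from -0.12 to 0.19. With the GC and length correction the log2 ratio of clone 2 to the parental line in DMSO was -0.064 for SLC9A3R2, and that of E2 to DMSO in clone 1 was -0.033 for MME. With the block and the correction together the E2 effects of SLC9A2 (0.70, adjusted p 0.0270) and SLC9A3R2 (-0.37, adjusted p 0.0482) also passed. The replicate block changed no other call of a member than those given above for SLC9A3R1 (E2), SLC9A3 (interaction) and PDZK1 (interaction). The knockout value of SLC9A3, which has no test, was 3.76 (SE 0.61) with the block in limma-voom. Depth limits SLC9A3 and PDZK1 in the parental DMSO library, ANPEP in DMSO, MME in clone 2 and DPP4 throughout. The cause of these differences was not tested.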
